A study of Caenorhabditis elegans with 2 samples.

Results

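The genes of the proteasome were examined in lists of regions bound by UNC-55 in ChIP-seq of whole late embryos of Caenorhabditis elegans. Members were the protein-coding genes whose Ensembl names start with pas-, pbs-, rpn- or rpt- followed by a digit. This gave 33 of 19973 nuclear protein-coding genes, 14 for the core particle and 19 for the regulatory particle. The source was strain NC1639, in which the integrated construct wdIs49 on chromosome III carries the ttr-39 promoter in front of UNC-55a fused to GFP, with dpy-20+ as a marker. Embryos were of mixed sex, and their age is given as unknown. Per the labels the target of the antibody is unc-55, and a note describes the tag as GFP with FLAG, so whether the tag or the receptor was pulled down is not known here. The ttr-39 promoter decides which cells made the fusion. The labels do not name those cells, and whole embryos were used, so a region cannot be assigned to a cell type. There were 2 replicates in 1 group and no other condition, so no groups were compared. Nothing in the labels beyond their name as biological replicates says whether they came from separate cultures.

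UNC-55 belongs to the COUP-TF nuclear receptors and is known for setting the synaptic pattern of the VD motor neurons. The proteasome is the protease that degrades ubiquitin-tagged proteins in the cytosol and nucleus of all cells. Its core particle is a barrel of alpha rings, encoded by the pas genes, around beta rings, encoded by the pbs genes, which hold the proteolytic sites. The regulatory particle caps the barrel. Its base holds the RPT ATPases, which unfold substrates and thread them into the core, and its lid of RPN proteins removes ubiquitin chains. In C. elegans many of these genes are raised together by SKN-1A, a relative of the mammalian factor Nrf1, when proteasome activity is low.

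The regions used were 2511 peaks kept by the authors by the irreproducible discovery rate (IDR), 30000 regions called on both replicates pooled, and 3577 and 30000 regions called in replicates 1 and 2. The pooled and replicate lists are labelled as peaks and background, and 30000 is the number at which a list ends, not a number of bound sites. Replicate 1 had a region over 770 IDR peaks and replicate 2 over 2510, so the replicates stand apart, and results are given for each. Each protein-coding transcript start was given a promoter window of 1000 bp upstream and 200 bp downstream. A gene is called bound where its window held an IDR summit, and a gene has a region of another list where at least 1 bp of it lay in the window. Signal values and ranks are those of the authors' peak caller within a list and are not scaled between lists. Depth is unknown, and intervals are 95% Wilson intervals that cover counting over genes alone.

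In the IDR set, 9 of the 33 proteasome genes were bound, or 27.3% (15.1 to 44.2). Among all protein-coding genes, 1466 of 19973 were bound, or 7.34%. Bound genes were found in both particles: pas-3 and pas-4 of the alpha ring, pbs-1 of the beta ring, the lid genes rpn-3, rpn-5, rpn-6.1 and rpn-9, and the ATPase genes rpt-3 and rpt-4. The core particle had 3 of 14 genes bound (21.4%, 7.57 to 47.6) and the regulatory particle 6 of 19 (31.6%, 15.4 to 54.0), with intervals that overlap widely. That order rests on replicate 2, since with the strongest regions of replicate 1 alone 4 of the 14 core genes (28.6%) and 3 of the 19 regulatory genes (15.8%) were bound. By those regions 5.13% of all protein-coding genes were bound. None of the 4 other base genes, rpn-1, rpn-2, rpn-10 and rpn-13, was bound, and each of the 9 bound genes had a single IDR summit. In replicate 1, 9 of the 33 genes had a region in the window, against 8.0% of all protein-coding genes, but 3 of those 9 were bound genes whose IDR peak the region overlapped. In replicate 2, 29 genes had a region, against 47.9% of all genes, and in the pooled list 31 had one, against 47.8%.

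The sequence at the summits is shown for 6 of the 9 bound genes, leaving out rpt-3, whose summit lay in an annotated exon, and pas-3 and pas-4, whose sequence is not printed here, because base composition and motifs are compared further on between these summits and the rest of the IDR set. Each runs 5′ to 3′ on the strand of the proteasome gene, within 100 bp of the IDR summit and cut where an annotated exon begins, from WBcel235 (ce11) as held by RefSeq. Capitals mark matches on either strand. The motif GTCAT, with its variant ATCAT, is the core recognised by SKN-1. GAGAGA is frequent at IDR summits, as is the 6-mer ACGCAG. The hexamer bound by COUP-TF receptors is AGGTCA. The stretches are chrII:4698428-4698573 (minus strand), chrIII:8447096-8447244 (plus), chrII:11239101-11239301 (minus), chrIV:1709810-1710010 (minus), chrII:43723-43906 (minus) and chrIII:6962213-6962339 (minus).
rpn-5: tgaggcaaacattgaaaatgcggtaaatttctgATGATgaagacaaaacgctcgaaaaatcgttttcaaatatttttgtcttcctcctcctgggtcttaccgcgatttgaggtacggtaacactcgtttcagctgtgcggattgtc
rpn-3: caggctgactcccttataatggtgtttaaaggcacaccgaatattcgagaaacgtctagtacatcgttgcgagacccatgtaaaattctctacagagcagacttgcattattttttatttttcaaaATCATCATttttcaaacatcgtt
rpn-9: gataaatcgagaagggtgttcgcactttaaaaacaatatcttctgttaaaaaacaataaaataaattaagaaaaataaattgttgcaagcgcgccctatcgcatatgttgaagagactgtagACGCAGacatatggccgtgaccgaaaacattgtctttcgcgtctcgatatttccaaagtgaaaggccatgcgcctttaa
pbs-1: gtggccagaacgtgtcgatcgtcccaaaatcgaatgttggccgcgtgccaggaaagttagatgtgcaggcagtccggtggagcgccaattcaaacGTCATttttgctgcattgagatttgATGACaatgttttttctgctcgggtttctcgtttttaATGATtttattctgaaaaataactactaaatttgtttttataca
rpt-4: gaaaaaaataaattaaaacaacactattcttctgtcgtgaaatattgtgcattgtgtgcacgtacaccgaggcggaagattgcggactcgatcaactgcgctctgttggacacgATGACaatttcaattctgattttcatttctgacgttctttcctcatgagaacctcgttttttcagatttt
rpn-6.1: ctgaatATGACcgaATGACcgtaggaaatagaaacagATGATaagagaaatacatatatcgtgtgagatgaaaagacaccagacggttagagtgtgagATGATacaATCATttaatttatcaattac
The stretch at rpn-6.1 held 5 copies of the SKN-1 core, that at pbs-1 held 3, and that at rpn-3 held 2 that overlap. The stretch at rpn-9 held none and was the only one of these 6 with ACGCAG. The GAGAGA motif was in 0 of these 6 stretches, but the pas-3 window, which is not shown, held it. The receptor hexamer was in 0 of the 6.

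The lid carried the strongest regions. RPN-5 and RPN-3 are scaffold proteins of the lid. The rpn-5 peak lay on chromosome II from 4698425 to 4698526 (ce11), had rank 87 in the IDR set and a signal value of 83.5, and its summit lay at -46 bp, counted from the nearest start of rpn-5. Replicate 2 had a region of signal value 80.2 and rank 79 there, and replicate 1's list had no region overlapping it. The rpn-3 peak lay on III from 8447076 to 8447219, with rank 156, a signal value of 73.2 and its summit at -209 bp. It was present in both replicates, with a signal value of 70.7 and rank 143 in replicate 2 and of 3.22 and rank 1385 in replicate 1. These 2 regions were also narrow, 102 and 144 bp wide, where the other 7 bound genes had regions of 360 bp.

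The other bound lid genes had weaker peaks without a region in replicate 1. RPN-9 is a further scaffold protein of the lid, and its peak on II from 11239021 to 11239380 had rank 1103, a signal value of 36.3 and a summit at -282 bp, with a signal value of 34.7 in replicate 2. RPN-6 holds lid, base and core together, and extra rpn-6.1 is known to raise proteasome activity in worms. Its peak on III from 6962122 to 6962481 had rank 1686, a signal value of 29.8 and a summit at -301 bp, with a signal value of 28.0 in replicate 2. The summit lay in an intron of the opposite-strand gene F57B9.1, whose most upstream start is 89 bp from that of rpn-6.1, so it lay downstream of that start and upstream of a later one. The paralog rpn-6.2 had no region in any of the 4 lists.

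Among the unbound lid genes, rpn-11, which encodes the metalloprotease that cuts ubiquitin chains from substrates, came closest to the IDR set. Its strongest pooled region had rank 2584 and a signal value of 23.5, where the weakest peak of the IDR set had a signal value of 23.8. Next was rpn-7, with rank 2813 and a signal value of 22.3, then rpn-12, with rank 4154 and 17.2. The gene rpn-8, whose product pairs with RPN-11, was lowest of the lid, with a pooled signal value of 7.90 at +277 bp, outside the window by its summit. Replicate 1 had a region of signal value 2.63 over that pooled region. The replicate 2 region in the rpn-8 window, with a signal value of 4.57, did not overlap it. Leaving aside rpn-8, the lid genes thus lay between 17.2 and 83.5, and the median over all 8 was 26.6.

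The ATPases of the base spanned a wide range. Both bound members had a region of replicate 1 that overlapped their peak. The rpt-4 peak on II from 43643 to 44002 had rank 1628, a signal value of 30.5, and 28.0 and 2.34 in replicates 2 and 1. Its summit lay at -161 bp from a downstream start of the gene, inside an intron of the longer transcript, and with the most upstream start alone rpt-4 was not bound. The rpt-3 peak on III from 6488923 to 6489282 had the lowest rank of the 9, 2478, and a signal value of 24.0. Its summit, at -690 bp, lay in the 3′ UTR of the upstream gene chtb-2. In replicate 1 the region overlapping the rpt-3 peak was the strongest of any proteasome gene, with a signal value of 6.47 and rank 166. The summit of that region lay at -453 bp, away from the IDR summit, so the overlap is partial. In replicate 2 the signal value was 21.5, at rank 2721. The 4 other ATPase genes had pooled signal values of 22.5 (rpt-1), 10.6 (rpt-6), 7.41 (rpt-2) and 5.49 (rpt-5), and IDR summits lay at -1392 bp of rpt-6 and -1482 bp of rpt-2, beyond the window.

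RPN-1 and RPN-2 are the large scaffolds of the base, and RPN-10 and RPN-13 are ubiquitin receptors. The pooled signal values were 14.8 for rpn-2, 12.5 for rpn-1 and 12.1 for rpn-13, and rpn-10 had no region in any list. The rpn-1 region was overlapped in both replicates, with signal values of 12.7 in replicate 2 and 3.98 in replicate 1, the latter at rank 709. The replicate 1 summit lay at +91 bp, where the pooled summit lay at -185 bp. The gene rpn-10 lies 119 bp downstream of mrpl-9 on the same strand.

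In the core particle all 14 genes had a pooled region, with signal values from 8.71 at pbs-5 to 32.7 at pbs-1. The catalytic beta subunits are encoded by pbs-1, pbs-2 and pbs-5. The pbs-1 peak on IV from 1709730 to 1710089 had rank 1409 and a summit at -165 bp, and the signal value in replicate 2 was 25.3. The strongest pooled region was at 18.2 for pbs-2 and 8.71 for pbs-5, and the latter had none in either replicate. Of the structural beta genes, pbs-3, pbs-4, pbs-7 and pbs-6 had pooled signal values of 20.2, 19.4, 18.5 and 13.4.

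The alpha ring has no proteolytic site and gates the entry to the barrel. The peaks of pas-4 and pas-3 lay on I from 8728433 to 8728792 and from 5106005 to 5106364, with signal values of 31.6 and 26.8, ranks of 1510 and 2052, and summits at -126 and -137 bp. In replicate 2 the signal values were 32.8 and 26.7, and replicate 1 had no region at either. The other 5 alpha genes lay between 12.8 and 17.3 in the pooled list. Among them pas-2 had a pooled signal value of 15.1 and a −log10 q-value of 4.02, the highest in that list, and no region in the window in either replicate's own list.

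**Figure D1:**
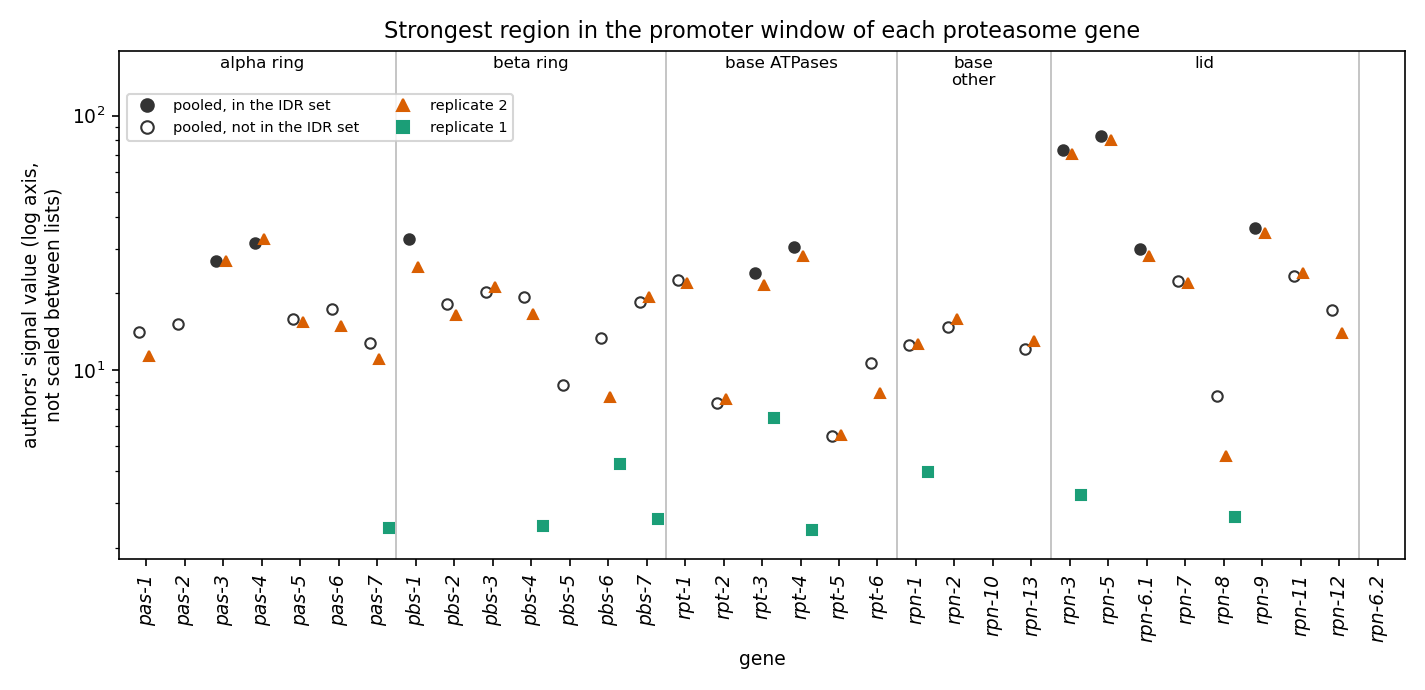
Signal value on a log axis of the strongest region in the promoter window of each of the 33 proteasome genes, by subcomplex, in the pooled list (circles, filled where the IDR set holds the summit) and in replicates 2 (triangles) and 1 (squares); a gene without a mark has no region in that list. The lid genes rpn-5 and rpn-3 stand highest at 83.5 and 73.2, and 9 genes have a mark in replicate 1.

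By their strongest regions the replicates named mostly different genes, while over the full lists the genes of replicate 1 were all among those of replicate 2. The 9 genes with a region in replicate 1 were pas-7, pbs-4, pbs-6, pbs-7, rpn-1, rpn-3, rpn-8, rpt-3 and rpt-4, and all 9 also had a region in replicate 2. Over all protein-coding genes, 1273 of the 1597 with a replicate 1 region also had one of replicate 2. Regions of both replicates were thus at 9 of the 33 proteasome genes, against 6.37% of all protein-coding genes. Of these 9, rpn-3, rpt-3 and rpt-4 were bound in the IDR set, and their 3 peaks overlapped replicate 1's regions. That is 3 of the 9 bound proteasome genes, where 430 of the 1466 bound protein-coding genes had such a peak. Those 430 are 2.15% of all protein-coding genes. Over the whole IDR set, replicate 1 had a region over 30.7% of the peaks, so the proteasome genes do not stand out here. With as many of replicate 1's strongest regions as the IDR set holds, 7 proteasome genes were bound by summit (21.2%, against 5.13% of all protein-coding genes), of which 2 were among the 9. With replicate 2's strongest regions, 9 were bound (27.3%, against 7.37%), of which 8 were among the 9, rpn-11 taking the place of rpt-3. The 9 bound genes therefore follow replicate 2 closely, and 6 of them rest on replicate 2 and the pooled list. The whole IDR set does the same, with 2510 of its 2511 peaks overlapped by replicate 2 and 770 by replicate 1.

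Below the IDR threshold, the pooled list reached proteasome promoters early. Of the 24 unbound genes, 22 had a pooled region, where 43.7% of all unbound protein-coding genes had one. Their signal values had a median of 15.0 and a range from 5.49 to 23.5. With the 1000 strongest pooled regions 2 of the 33 genes were reached, where 3.12% of all protein-coding genes were. With the 2511 strongest, as many as the IDR set holds, 9 of 33 were reached, against 7.99% of all genes. With 5000 regions, 20 of 33 were reached (60.6%, against 15.2% of all genes), 10 of 14 in the core and 10 of 19 in the regulatory particle. With 10000 regions, 27 were reached (81.8%, against 25.2%), and with 20000, 31 (93.9%, against 38.2%). The strongest pooled region had the highest −log10 q-value of the list, 4.02, at 21 of the 33 genes and at 15.9% of all protein-coding genes. Genes of cytosolic ribosomal proteins, another set of housekeeping complexes, had 53 of 81 bound, with 30.9% reached by the 1000 strongest pooled regions and 91.4% by 10000. The proteasome genes were thus reached mostly between ranks 2511 and 10000, and the ribosomal genes mostly above rank 2511; the difference was not tested.

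**Figure D2:**
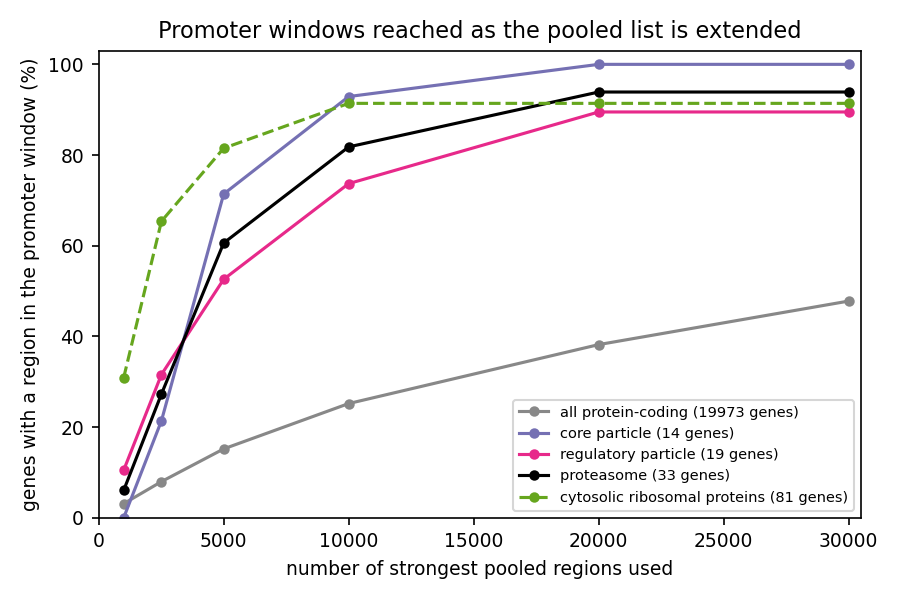
Share of genes with a region in the promoter window, in percent, against the number of strongest pooled regions used, for the 33 proteasome genes, their core and regulatory particles, 81 ribosomal protein genes and all 19973 protein-coding genes. At 5000 regions the proteasome stands at 60.6% and all genes at 15.2%.

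Most bound proteasome genes shared their summit with a neighbour. In 8 of the 9 the summit also lay in the window of a gene on the opposite strand, and rpt-3 was the exception. Over all bound protein-coding genes, 574 of 1466, or 39.2%, had every summit shared with another protein-coding gene. The partners were scc-1 at rpn-5, the cleavable subunit of cohesin, hsp-110 at rpn-3, a chaperone of the heat shock family, rpb-3 at pas-4, a subunit of RNA polymerase II, and nfyc-1 at rpt-4, a subunit of the factor NF-Y. The remaining partners were use-1 at pas-3, K08D12.3 at pbs-1, F57B9.1 at rpn-6.1 and T06D8.9 at rpn-9. The peak lists cannot tell which gene of a pair a region belongs to. Counting only summits in the window of a single gene, 1 of the 33 proteasome genes was bound (3.03%), against 4.47% of all genes. That count was chosen after seeing the data. By distance, the summit was nearer the proteasome gene at rpn-5 (46 bp, against 248 bp to scc-1), rpn-3 (209 against 235), rpn-9 (282 against 396), pbs-1 (165 against 355) and pas-4 (126 against 151). It was nearer the partner at pas-3 (19 bp to use-1), rpn-6.1 (38 bp to F57B9.1) and rpt-4 (84 bp to nfyc-1). Noncoding RNA genes also had their window over a bound summit, C36B1.16 at pas-4 and C30C11.14 at rpn-3.

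This sharing goes with the layout of these genes. A protein-coding gene on the opposite strand had its most upstream start within 1000 bp upstream of the start of 21 of the 33 proteasome genes (63.6%), against 17.7% of all protein-coding genes. The starts were 89 to 790 bp apart, with a median of 444 bp. Of these 21 genes 7 were bound (33.3%), where 13.2% of all head-to-head genes were bound. Of the other 12 proteasome genes, rpt-3 and rpt-4 were bound, where 6.08% of such genes were. The partner of rpn-12 is rad-23, which encodes a shuttle factor that brings ubiquitinated proteins to the proteasome. Both genes held the same pooled region, with rank 4154 and a signal value of 17.2. For 8 proteasome genes a gene on the same strand ended within 500 bp upstream. Operons were not annotated in the reference used, so this describes position only. Of these 8 genes 1, rpt-3, was bound (12.5%), where 3.96% of all genes with such a neighbour were.

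**Figure D3:**
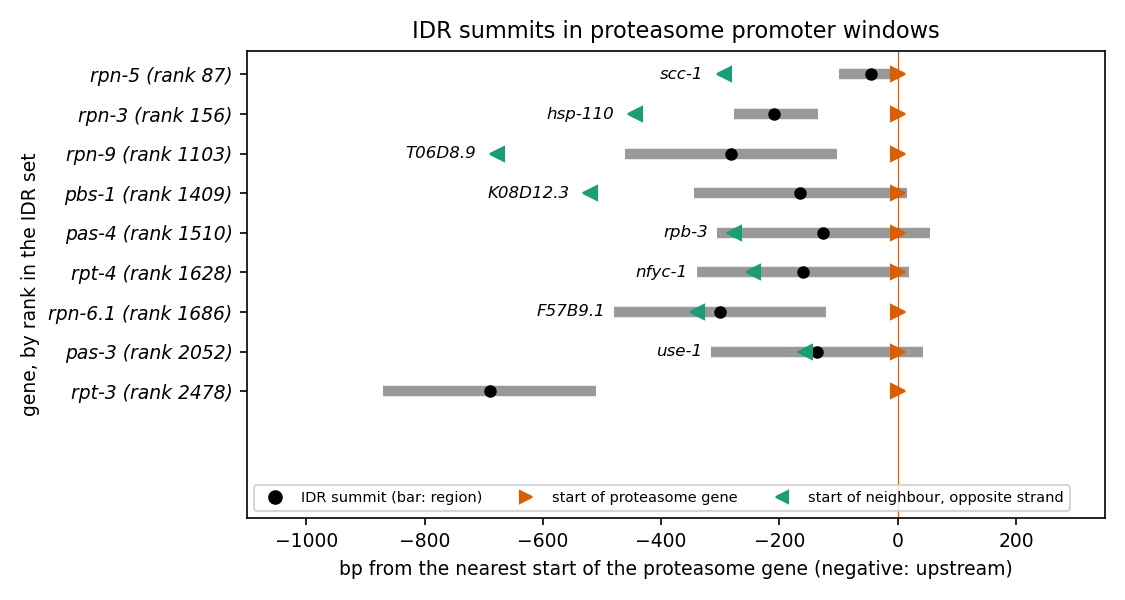
Position in bp of the IDR summit (dot) and region (bar) relative to the nearest start of each of the 9 bound proteasome genes (right-pointing triangle, gene reads to the right), by rank in the IDR set, with the nearest start of the gene on the opposite strand that shares the summit (left-pointing triangle). In 8 genes the summit lies between the pair of nearest starts, from -46 to -301 bp, and at rpt-3 it lies at -690 bp with no partner.

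The 9 summits lay at a median of -165 bp from the proteasome start, where the median over all bound genes was -252 bp, with quartiles of -488 and -125 bp. Over the strongest pooled regions, the summit was within 500 bp upstream of a start for 22 of the 31 proteasome genes with a region, or 71.0%, and for 51.0% of all genes with a region. The signal values of the bound proteasome genes had a median of 31.6, close to the 34.2 of all bound genes.

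The proteasome summits differed in composition from the bulk of the IDR set. Within 100 bp of the 9 summits the GC content was 36.1% ± 2.85 (SD over 9 windows, from 31.3% to 40.8%), where the 1225 IDR summits in promoter windows had 44.5% ± 6.51. GAGAGA was in 1 of the 9 windows, at pas-3, and in 49.6% of the promoter IDR summits. ACGCAG was in 1 of the 9, at rpn-9, as seen above, and in 29.9%. AGGTCA was in 0 of the 9 and in 6.37%, a count at which 0 of 9 says little. The SKN-1 core was in 8 of the 9 windows and in 50.6% of the promoter IDR summits. All 9 windows had a GC content below 42%, a limit chosen after seeing the values, and among the 461 promoter IDR summits below it GAGAGA was in 33.8%, ACGCAG in 23.6% and the SKN-1 core in 57.5%. The cytosolic ribosomal proteins, for comparison, had the core at 31.4% of 51 summits, GAGAGA at 23.5%, and a GC content of 42% ± 4.27 (SD over 51 windows). These differences were not tested.

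The strongest pooled regions take in the genes below the IDR threshold. The SKN-1 core was in 28 of the 31 proteasome windows, or 90.3%, and in 54.2% of 8019 such windows over all genes. The windows of pbs-3, rpn-7 and rpn-9 lacked it. Windows were taken at the summit wherever it lay, which at pas-5 (-1080 bp) and rpn-8 (+277 bp) was outside the promoter window. Distance to the start was not matched between the proteasome windows and those of all genes. GAGAGA was in 3 of the 31 (9.68%, against 26.2%), ACGCAG in 2 (6.45%, against 13%) and AGGTCA in 0 (against 6.06%). The GC content was 36.1% ± 5.37 (SD over 31 windows) for proteasome genes and 38.2% ± 7.41 over all genes, a smaller gap than at the IDR summits and within 1 SD. A short AT-rich motif is met more often in AT-rich sequence. Among windows below the same 42% limit, the SKN-1 core was in 26 of 29 proteasome windows (89.7%) and in 56.2% of 5729 windows over all genes, and GAGAGA in 2 of 29 and in 18.4%. A match is only these letters, and no match says only that they are not in the window.

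Promoters were also searched without regard to regions, from 250 bp upstream to 50 bp downstream of the most upstream start. The SKN-1 core was in 28 of 33 proteasome promoters (84.8%), 12 of 14 in the core and 16 of 19 in the regulatory particle, and in 72.1% of all promoters. GAGAGA was in 6 promoters (18.2%, against 21.8%), ACGCAG in 0 (against 8.23%), and AGGTCA in 2, those of rpn-11 and rpn-6.2 (6.06%, against 8.23%). For GAGAGA and ACGCAG the direction turned with promoters from 500 bp upstream to 100 bp downstream, where 42.4% of proteasome promoters held GAGAGA, against 33.9% of all, and 21.2% held ACGCAG, against 14.4%. The motifs were searched on both strands, and AGGTCA shares 4 bases with GTCAT where they overlap. For the SKN-1 core the longer promoters gave 100%, against 91.0% of all, and for AGGTCA 12.1%, against 14.8%. The share of promoters with the SKN-1 core was thus nearer that of all genes than in the windows at the regions. Both promoter lengths exceed those windows and give more chances of a match, so these gaps cannot be set against each other.

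**Figure D4:**
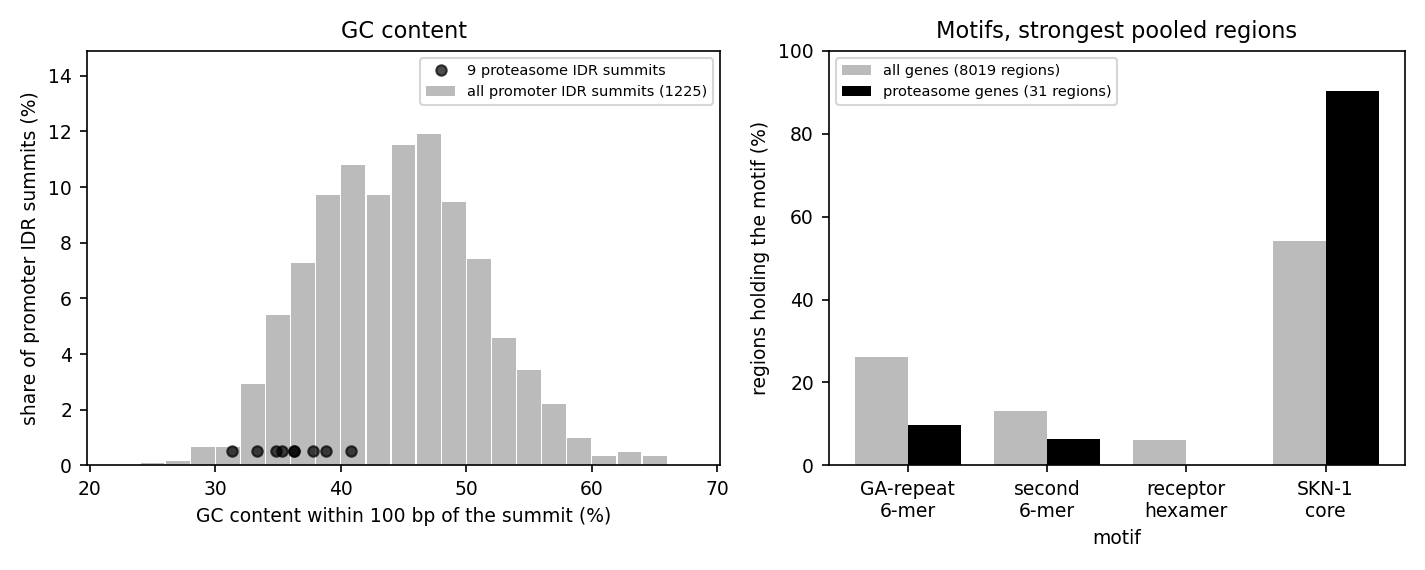
Left, GC content in percent within 100 bp of the 1225 IDR summits in promoter windows (grey bars, share of summits in percent) and of the 9 proteasome summits (dots, height without meaning); right, share in percent of strongest pooled regions that hold GAGAGA (GA-repeat 6-mer), ACGCAG (second 6-mer), AGGTCA (receptor hexamer) or the SKN-1 core, for all genes (grey) and proteasome genes (black). The proteasome summits lie between 31.3% and 40.8% GC, and the SKN-1 core stands at 90.3% against 54.2%.

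Other genes of the pathway were read the same way. Of 6 genes that control proteasome gene expression, 2 were bound, against 7.34% of all protein-coding genes. The gene skn-1 itself had a peak at -529 bp that ranked 1694, its signal value being 29.7, and wdr-23, whose product targets SKN-1 for degradation, had one at -133 bp that ranked 479, at 51.0. Both peaks overlapped regions of replicate 1, but weak ones. The strongest replicate 1 regions in the windows of skn-1 and wdr-23 ranked 3514 and 3159 of 3577. The protease gene ddi-1, png-1, which encodes the N-glycanase that acts on SKN-1A, and the ER-associated degradation genes sel-1 and sel-11 were not bound.

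The counts of bound genes that follow stand against the same 7.34% of all protein-coding genes. Among 6 annotated genes of proteasome-associated proteins 1 was bound, aip-1, which encodes an arsenite-induced cofactor, with a signal value of 34.3 at -58 bp, shared with ddx-17. The gene dss-1, which encodes the smallest lid subunit, had no pooled region. Among 10 genes of ubiquitin and of CDC-48, the segregase that extracts ubiquitinated proteins, 4 were bound. These were cdc-48.1 (signal value 76.3, rank 128), the CDC-48 cofactor ufd-3 (35.8), the polyubiquitin gene ubq-1 (30.4) and the ubiquitin chain elongation factor ufd-2 (26.2), and 0 of the 4 peaks overlapped replicate 1's list. Of the COP9 signalosome, whose subunits resemble those of the lid, 0 of 6 genes were bound and 3 had a pooled region, where 47.8% of all genes had one. Both counts are near the shares over all genes. Of the CCT chaperonin, 4 of 8 were bound, cct-1, cct-6, cct-7 and cct-8, with signal values of 57.0, 36.1, 35.2 and 30.4, each sharing its summit with a neighbour. These lists are small, and their shares have wide intervals, from 9.68% to 70.0% for expression control and up to 39.0% for the COP9 signalosome.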

How the data were processed

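Transcription factor ChIP-seq of UNC-55 was made in 2 replicates. The authors called regions per replicate and on pooled alignments, with a control, and kept an optimal IDR set, per the deposited file descriptions. The aligner and the caller were not given in the sources used here. The signal value of each region and its −log10 q-value are the authors' deposited values, and the signal was used to rank regions within a list. The deposited summit was the centre of 95.7% of the IDR regions. The ce10 lists and 14 mitochondrial regions of replicate 1 were not used here.

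The ce11 lists were joined to WBcel235 (Ensembl release 115 genes, RefSeq sequence) with Python 3.11.15, numpy 2.4.6 and pyfaidx 0.9.0.4. Positions are 1-based. A summit in several windows counted for each gene. The assignment was tested on simulated data. No test was run on the members. Every member is accounted for; bound members, their neighbours and bound genes of the related lists are named. The members and lists were chosen with earlier results of these data known. The names ubqn-1, csn-7 and csn-8 were not found in the annotation. Alternatives were other windows, starts, overlaps, list ends, single replicates and promoter lengths.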

Additional observations from a re-analysis of the deposited data

How the results depend on the processing

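Of 63 alternative values, 45 stayed within 1.5 times the main count. With the stronger IDR peaks alone 3 proteasome genes were bound (9.09%), 0 of the core and 3 of the regulatory particle. Among all protein-coding genes 713 were (3.57%). With IDR peaks overlapped by replicate 1 the counts were 3 (9.09%), 0, 3 and 430 (2.15%). With summits in the window of a single gene, an alternative chosen after seeing the data, they were 1 (3.03%), 0, 1 and 892 (4.47%). The proteasome share then lay below that of all genes, where in the main count it lay above. With each replicate left out in turn the counts ranged from 7 to 9, from 3 to 4, from 3 to 6 and from 1025 to 1472. In shares, the proteasome ranged from 21.2% to 27.3% and all genes from 5.13% to 7.37%. With each summit given only to its nearest start, 6 proteasome genes and 5.83% of all genes were bound. The narrower window gave 8, against 5.45% of all genes, and the wider window 11, against 10.3%. Ended at the length of the IDR set, the pooled and replicate 2 lists each had regions at 9 proteasome genes, against 7.99% and 8.05% of all genes. In promoters from 500 bp upstream to 100 bp downstream, GAGAGA was in 14, ACGCAG in 7 and AGGTCA in 4 proteasome promoters, where the longer sequence gives more chances of a match. For GAGAGA and ACGCAG the share then stood above that of all promoters, 42.4% against 33.9% and 21.2% against 14.4%. For AGGTCA it stayed below, 12.1% against 14.8%. No paired analysis was possible because the 2 replicates form 1 group. Depth is unknown, so a gene without a region is not shown to be unbound.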
